A study of Mus musculus with 12 samples.

Results

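The aminoacyl-tRNA synthetases are the enzymes that join each amino acid to its tRNA. They were taken from the deposited count table by gene symbol: a letter for the amino acid followed by ars, with or without a closing 1 or 2, together with Eprs, Farsa and Farsb. The rule found 37 of 21232 genes, 20 of them cytosolic and 17, whose symbols end in 2, mitochondrial. The RNA came from C2C12, an established line of mouse myoblasts. Its cells leave the cell cycle and fuse into myotubes when serum is lowered. There were 12 libraries in 4 groups of 3, with libraries lettered A, B and C in each. TNF cells were differentiated for 48 h in 2% horse serum with the inflammatory cytokine TNF alpha at 10 ng/ml. Fbxl2 siRNA cells were differentiated for 48 h after silencing of Fbxl2, the gene of an F-box protein that selects substrates for a ubiquitin ligase. Control cells were differentiated for 48 h with neither, and proliferating cells were taken in growth medium with 10% fetal serum at 0 h. The labels give strain C57BL/6 for the line and passages 5 to 10, and do not state if a non-targeting siRNA was given to the control or the TNF cells. They name no separate cultures behind the letters, so the p-values rest on differences among libraries of a group that may be purely technical.

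Each synthetase serves a single amino acid, except Eprs, which charges both glutamate and proline tRNAs. Phenylalanine uses an enzyme of 2 kinds of subunit, encoded by Farsa and Farsb. Mitochondria have their own set of enzymes, but Gars and Kars encode both the cytosolic and the mitochondrial form, and mitochondria have no glutaminyl enzyme. Several cytosolic members (Eprs, Iars, Lars, Mars, Qars, Rars, Kars and Dars) sit in the multi-synthetase complex, built on the scaffold proteins encoded by Aimp1, Aimp2 and Eef1e1. Transcription of many cytosolic synthetase genes is activated by ATF4. Cells make this factor when amino acids run short or unfolded protein builds up in the endoplasmic reticulum. In muscle, protein synthesis in the cytosol and in the mitochondria depends on these 2 sets of enzymes.

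Library totals ran from 26416978 to 32917763 counts, and the members together took between 0.570% and 1.02% of them. Without Lars2, which is described at the end, that share was 0.322% to 0.329% in TNF cells, 0.308% to 0.316% in Fbxl2 siRNA cells, 0.272% to 0.273% in control cells and 0.447% to 0.517% in proliferating cells. Levels are given in CPM, counts scaled to a common library size with edgeR's TMM factors. Fbxl2 itself had 22.5, 20.6 and 23.6 CPM in Fbxl2 siRNA libraries A, B and C, against 31.9, 32.6 and 34.4 CPM in control libraries. The groups did not overlap, and the log2 fold change was -0.57 (SE 0.06; edgeR adjusted p = 1.67e-07). Summed levels of 5 myoblast markers (Myod1, Myf5, Des, Cdh15 and Pax7) were 981 to 1039 CPM in TNF libraries, 1707 to 1796 in Fbxl2 siRNA libraries, 1740 to 1809 in control libraries and 1404 to 1552 in proliferating libraries. Des had the most counts of the 5 in every library, and the 5 did not move together. Raw counts in Fbxl2 siRNA against control libraries were lower for Myod1 (1511 to 1578 against 2591 to 3332). Pax7 (225 to 277 against 532 to 593) and Cdh15 (9435 to 9963 against 11311 to 13920) were lower too. Myf5 was higher (1570 to 1885 against 1240 to 1484), and the Des ranges, not scaled to library size, overlapped. The 5 markers of differentiating muscle used, of 7 listed, were Myog, Myh3, Ckm, Actc1 and Tnnt2. They summed to 357 to 486 CPM in TNF libraries and 546 to 818 in Fbxl2 siRNA libraries. The sums were 1593 to 1910.0 CPM in control libraries and 129 to 130.4 in proliferating libraries. Myh3 had the most counts of the 5 in every library except the proliferating ones, where Tnnt2 did. Raw Tnnt2 counts overlapped between TNF (2632 to 3449) and proliferating libraries (2594 to 2892). Those of Myog, Myh3, Ckm and Actc1 were higher in every TNF library than in any proliferating library. Markers of both sets differ between groups compared below, and their part in the results was not tested. Marker sums for macrophages, endothelium, epithelium, fat and neurons stayed below 3 CPM in every library, and Adgre1, Epcam and Snap25 had no count in any. In cultures measured in bulk, fewer cells of a type and less RNA per cell cannot be told apart.

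**Figure D1:**
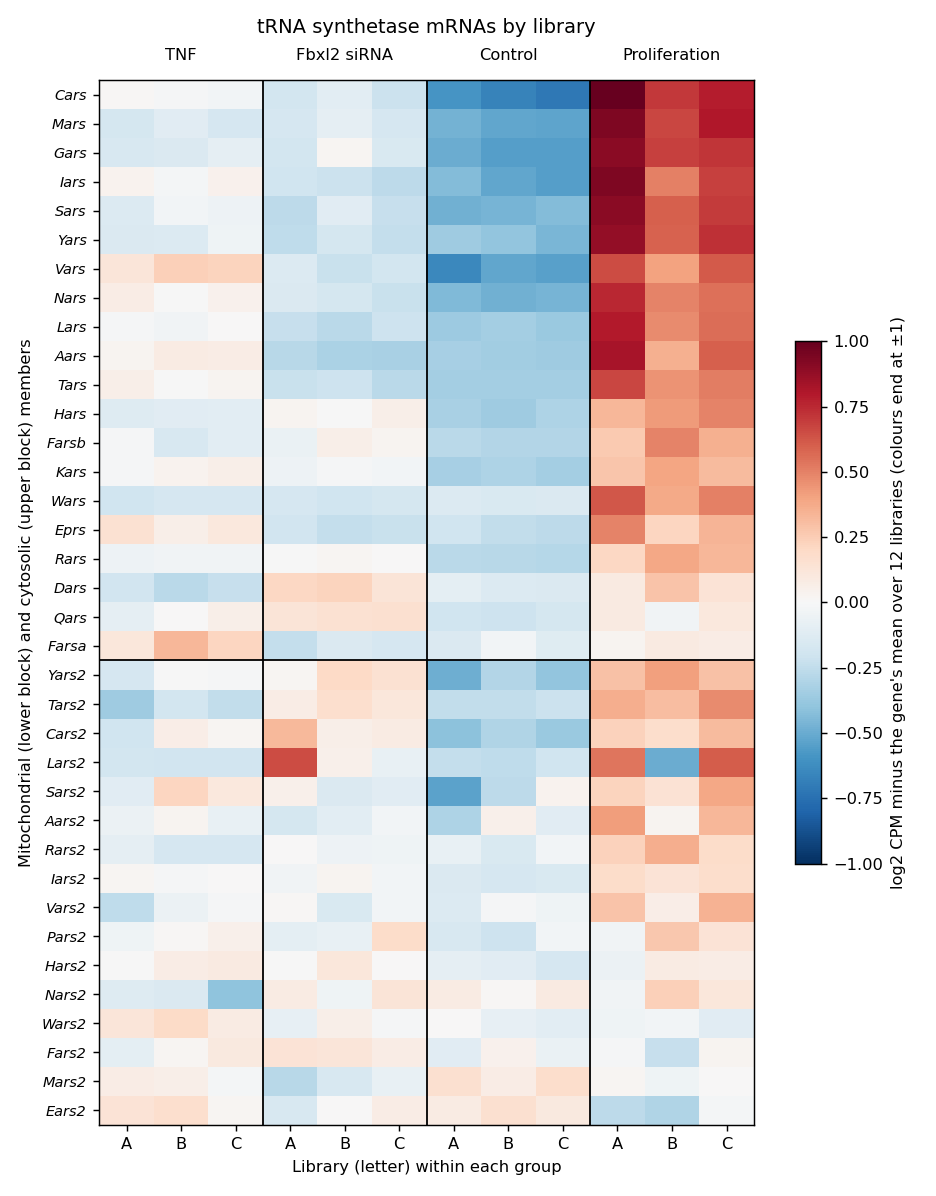
Level of 36 of the 37 members in the 12 libraries, as log2 CPM minus the gene's own mean over all libraries, with red above and blue below that mean. Rows are ordered by the control over proliferation fold change within the cytosolic block (above the line) and the mitochondrial block (below it); the upper rows are red in proliferating libraries and blue in control libraries, and Lars2 differs between libraries of the same group.

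Differentiation for 48 h was compared with proliferation to describe how the synthetase mRNAs move as the line leaves growth medium. All 20 cytosolic synthetases fell in control cells relative to proliferating cells, with a median log2 fold change of -0.92 and a range of -1.50 to -0.16. Of the 17 mitochondrial synthetases 11 fell, 1 rose (Ears2) and 5 did not pass the test, and their median was -0.32. Among all 12736 genes tested, 77.2% were called, 38.9% lower and 38.4% higher, and the median was 0.00. Calls are edgeR quasi-likelihood tests at a Benjamini-Hochberg adjusted p under 0.05 over all genes tested, with all 12 libraries in a single fit. All 37 members passed the filter on low counts. Most members given with values per library were chosen by small p-values. Lack of overlap between groups is therefore a description of those genes, without a share over all genes beside it. The summed cytosolic level was 2374, 2343 and 2333 CPM in control libraries A, B and C, against 4726, 4086 and 4312 CPM in proliferating libraries. The summed level of the 16 mitochondrial members other than Lars2 was 319.5 to 325 CPM in control libraries, against 406 to 418 CPM in proliferating libraries.

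Cars, the cysteinyl enzyme, had the most negative fold change of the 37. It had 48.1, 45.4 and 44.0 CPM in control libraries A, B and C, against 147, 118 and 125 CPM in proliferating libraries. The groups lay far apart, and the log2 fold change was -1.50 (SE 0.07; edgeR adjusted p = 2.4e-14). Mars, which charges both initiator and elongator methionine tRNAs, had 90.8, 87.9 and 87.3 CPM in control libraries and 241, 199.7 and 219.5 CPM in proliferating libraries. Every control library of Mars was below every proliferating library, and the log2 fold change was -1.31 (SE 0.06; edgeR adjusted p = 1.12e-14). Gars, the glycyl enzyme of both compartments, had 172, 165 and 166 CPM in control libraries and 453, 389.6 and 398 CPM in proliferating libraries, a log2 fold change of -1.30 (SE 0.06; edgeR adjusted p = 3.79e-14). Vars, the valyl enzyme, had 79.5, 86.7 and 85.3 CPM in control libraries and 196, 165 and 191 CPM in proliferating libraries. Its log2 fold change was -1.13 (SE 0.06; edgeR adjusted p = 3.18e-13). In all 4 genes proliferating library A was the highest of the 12 libraries. Iars, Sars, Yars and Nars also fell by more than 1 on the log2 scale.

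At the other end of the cytosolic set, Farsa, Qars and Dars fell least. Farsa, the catalytic subunit of the phenylalanyl enzyme, had 53.4, 57.6 and 54.1 CPM in control libraries A, B and C, against 59.9, 62.7 and 62.0 CPM in proliferating libraries. The groups did not overlap, but the log2 fold change was only -0.16 (SE 0.05; edgeR adjusted p = 0.0116), and the call was lost without control library A (edgeR adjusted p = 0.0537). Its partner subunit Farsb had 54.7, 53.6 and 53.9 CPM in control libraries and 79.0, 93.1 and 84.2 CPM in proliferating libraries, a log2 fold change of -0.66 (SE 0.06; edgeR adjusted p = 1.35e-09). The 2 subunits of this enzyme thus had different fold changes. The log2 ratio of Farsb to Farsa was -0.03 ± 0.07 in control cells and 0.47 ± 0.09 in proliferating cells (SD, n = 3 each; two-sided exact permutation test p = 0.1, the smallest that 3 against 3 allows). Kars, the lysyl enzyme of both compartments, had 94.0, 95.7 and 93.4 CPM in control libraries and 144, 155 and 148 CPM in proliferating libraries (log2 fold change -0.66, SE 0.04). Eprs had 243, 235 and 233 CPM in control libraries and 393, 323 and 353 CPM in proliferating libraries (log2 fold change -0.59, SE 0.06).

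The cytosolic members were split by whether they are widely reported as ATF4 targets. The split was made with earlier results of these data known, so differences between its classes, here and below, are descriptions only. The 13 reported targets (Aars, Cars, Eprs, Gars, Iars, Lars, Mars, Nars, Sars, Tars, Vars, Wars and Yars) had a median log2 fold change of -1.13 in control over proliferating cells, from -1.50 to -0.59. The other 7 (Dars, Farsa, Farsb, Hars, Kars, Qars and Rars) had a median of -0.58, from -0.75 to -0.16. The ranges overlapped through Wars (-0.65) and Eprs (-0.59) among the reported targets and Hars (-0.75), Farsb (-0.66) and Kars (-0.66) among the others. Atf4 mRNA had 219.7, 209.6 and 204 CPM in control libraries A, B and C, against 585, 476 and 493 CPM in proliferating libraries (log2 fold change -1.29, SE 0.06; edgeR adjusted p = 2.35e-13). In a list of 27 genes for ATF4 and non-synthetase targets, 25 fell in control cells, 1 rose (Vldlr) and 1 did not pass the test, with a median of -1.72. The smallest p-values were those of Psat1 (log2 fold change -2.33) and Psph (-2.31), enzymes of serine synthesis. The same comparison split by the multi-synthetase complex gave medians of -0.62 for its 8 members and -1.01 for the 12 free synthetases, and all 20 were called lower. The scaffold genes Aimp2 (-0.73), Aimp1 (-0.49) and Eef1e1 (-0.80) fell too.

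Promoter sequence was examined next. In control over proliferating cells all 13 reported targets were called lower, and so were all 7 other cytosolic members. Windows from 250 bases before to 50 after the annotated start (RefSeq, GRCm38.p6) were at hand for 27 of the 37 members, 13 cytosolic and 14 mitochondrial. They were searched on both strands for TGATGNAA, the C/EBP-ATF response element that ATF4 binds with a C/EBP partner. It was found in 5 of 13 cytosolic members (Aars, Gars, Iars, Tars and Yars) and 0 of 14 mitochondrial members, against 3.97% of all 32851 windows. Those 5 are reported targets, as are Eprs, Mars and Sars, whose windows held no match. The other cytosolic members with a window were Dars, Farsa, Farsb, Kars and Qars. This overlap with the reported targets was not tested. A pair of interferon-linked motifs was searched as well: the gamma-activated site TTCNNNGAA was in 3 of 27 members (Aars, Kars and Nars2), against 8.3% of all windows, and the interferon-stimulated response element in 1 of 27 (Qars), against 3.44%. A match is a description of the letters in the window and not evidence of binding. The 5 stretches from 150 bases before to 30 after the start are given 5′ to 3′ on the gene's own strand, with each match to TGATGNAA in capitals; a match on the opposite strand appears as its reverse complement.
Aars, chr8:111033692-111033871, plus strand: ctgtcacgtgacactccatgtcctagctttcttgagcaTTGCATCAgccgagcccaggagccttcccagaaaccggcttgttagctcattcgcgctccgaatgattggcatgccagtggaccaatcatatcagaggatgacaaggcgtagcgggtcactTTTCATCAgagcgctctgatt
Gars, chr6:55037851-55038030, plus strand: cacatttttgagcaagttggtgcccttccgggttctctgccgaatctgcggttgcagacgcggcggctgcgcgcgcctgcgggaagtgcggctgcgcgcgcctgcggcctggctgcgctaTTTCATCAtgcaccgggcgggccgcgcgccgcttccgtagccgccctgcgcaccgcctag
Iars, chr13:49681980-49682159, plus strand: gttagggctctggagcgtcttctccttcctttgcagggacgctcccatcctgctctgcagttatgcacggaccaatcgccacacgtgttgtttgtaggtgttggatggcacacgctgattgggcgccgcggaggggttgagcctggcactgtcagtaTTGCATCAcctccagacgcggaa
Tars, chr15:11399629-11399808, minus strand: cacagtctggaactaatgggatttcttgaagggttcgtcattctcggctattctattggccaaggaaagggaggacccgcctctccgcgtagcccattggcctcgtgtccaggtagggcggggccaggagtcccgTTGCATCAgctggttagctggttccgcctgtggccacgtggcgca
Yars, chr4:129189753-129189932, plus strand: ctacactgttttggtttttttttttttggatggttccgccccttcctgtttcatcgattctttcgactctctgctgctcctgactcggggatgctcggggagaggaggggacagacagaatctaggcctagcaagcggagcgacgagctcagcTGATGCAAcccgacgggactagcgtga

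With the start base counted as 1, the match began at base 4 in Yars, 8 in Iars, -15 in Tars, -30 in Gars and at -112 and 10 in Aars. These 5 genes fell in control relative to proliferating cells by log2 fold changes of -1.14 (Yars), -1.22 (Iars), -0.89 (Tars), -1.30 (Gars) and -0.95 (Aars). The windows of Mars, Sars and Eprs, also reported targets, held no match. These genes had log2 fold changes of -1.31 (Mars), -1.20 (Sars) and -0.59 (Eprs). Members for which no window was used include Cars, Hars, Lars, Nars, Rars, Vars, Wars, Hars2 and Pars2.

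**Figure D2:**
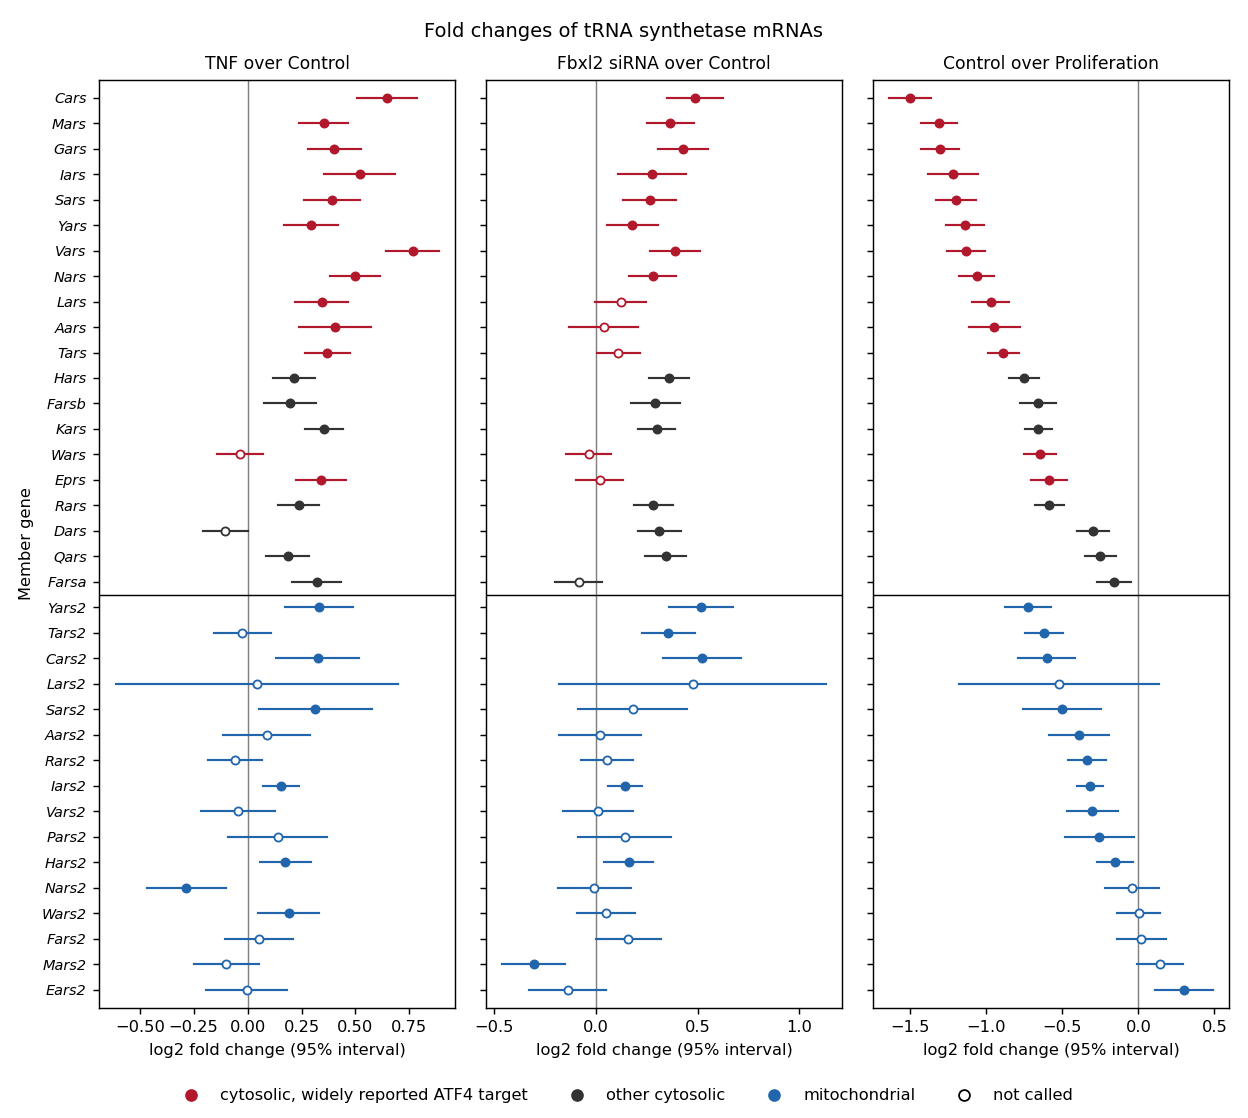
Log2 fold change of 36 of the 37 members with the 95% interval, for TNF over control (left), Fbxl2 siRNA over control (middle) and control over proliferation (right), from all 12 libraries; filled points passed the adjusted p of 0.05, and the 3 horizontal scales differ. All 20 cytosolic members lie left of 0 on the right, and 18 of 20 are called higher on the left; the interval of Lars2 is the widest in each panel.

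Of the mitochondrial members called lower in control than in proliferating cells, Tars2 and Yars2 were among those with the smallest p-values. Tars2, the threonyl enzyme, had 20.9, 20.9 and 21.3 CPM in control libraries and 31.8, 30.6 and 34.4 CPM in proliferating libraries (log2 fold change -0.62, SE 0.06; edgeR adjusted p = 8.9e-09). Yars2, the tyrosyl enzyme, had 11.7, 13.4 and 12.4 CPM in control libraries and 20.1, 21.7 and 20.1 CPM in proliferating libraries (log2 fold change -0.73, SE 0.07; edgeR adjusted p = 1.56e-08). In both genes every control library was below every proliferating library. Cars2, Sars2, Aars2, Rars2, Iars2, Vars2, Pars2 and Hars2 were also called lower, with log2 fold changes from -0.60 to -0.15. The calls of Hars2 and Pars2 were weak: that of Hars2 was lost without control library C or proliferating libraries B or C (highest edgeR adjusted p = 0.0853), and that of Pars2 without control libraries A or B or proliferating libraries B or C (highest edgeR adjusted p = 0.158). Ears2, the glutamyl enzyme, was the only member called higher, at 8.81, 9.30 and 8.88 CPM in control libraries and 6.94, 6.74 and 8.22 CPM in proliferating libraries. Its groups did not overlap, and its log2 fold change was 0.30 (SE 0.09; edgeR adjusted p = 0.00607). Mars2 (0.14), Fars2 (0.02), Wars2 (0.00), Nars2 (-0.04) and Lars2 (-0.52) did not pass the test.

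Pairs of enzymes for the same amino acid were set side by side. There are 18 such pairs when Eprs is matched with both Ears2 and Pars2, and Farsa and Farsb with Fars2. In control over proliferating cells the cytosolic member had the lower fold change in 17 of 18 pairs, with a median difference of -0.62 in log2 fold change. The widest gap was that of Mars (-1.31) and Mars2 (0.14). These differences between pair members were not tested. Genes that act beside the mitochondrial enzymes gave the following counts: 5 of 9 mitochondrial translation factors fell and none rose, led by Tsfm (-0.88) and Tufm (-0.51), which deliver charged tRNA to the mitochondrial ribosome or recycle the factor that does. Of 11 mitochondrial tRNA-processing and -modifying enzymes, 9 fell, led by Hsd17b10 (-0.56) and Trmt5 (-0.66), and 2 rose (Trmu, 0.76, and Trit1, 0.16). Of 6 cytosolic elongation factors 5 fell, led by Eif5a (-1.17) and Eef1g (-0.67), and Eef2 (0.01) did not pass the test. Of 12 genes for other proteins that work with synthetases or charged tRNA, 9 fell and 2 rose. They include the exporter of tRNA from the nucleus, Xpot (-0.74), and Tarsl2 (-0.96), a second cytosolic threonyl enzyme that the symbol rule does not take in.

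**Figure D3:**
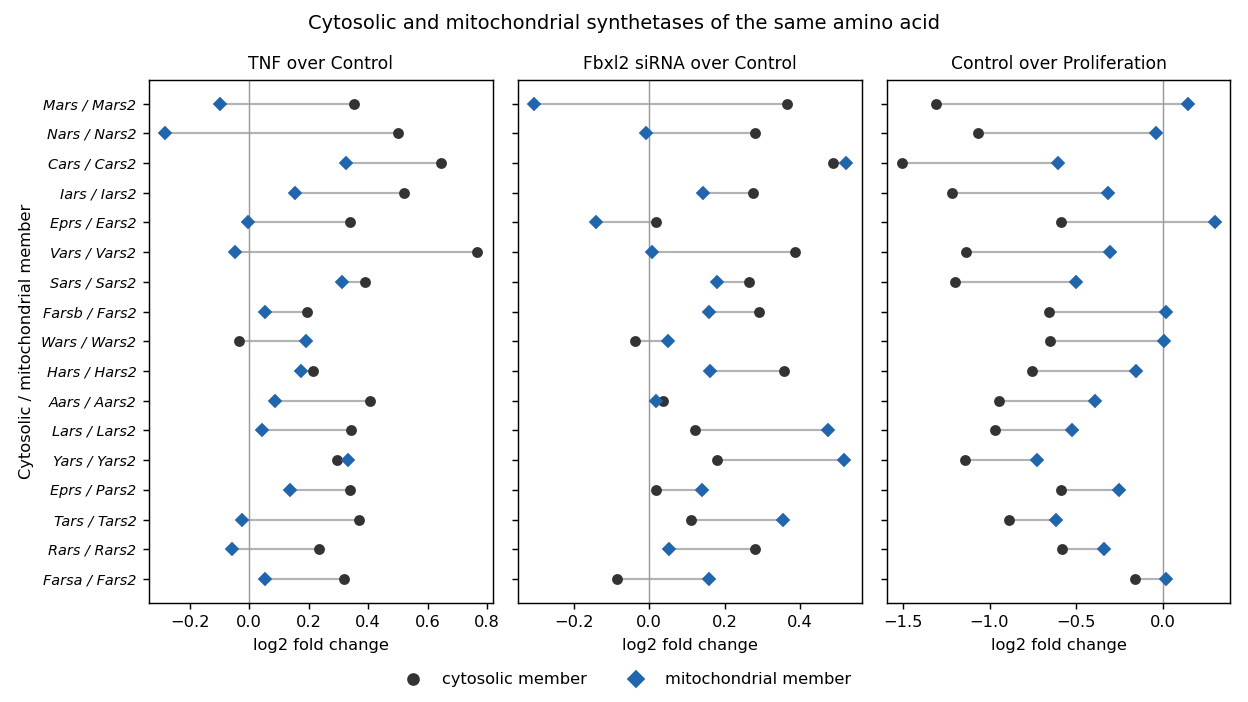
Log2 fold changes of the cytosolic member (dark circle) and the mitochondrial member (blue diamond) of 17 of the 18 same-amino-acid pairs, for TNF over control (left), Fbxl2 siRNA over control (middle) and control over proliferation (right), with pairs ordered by their difference on the right. On the right the circle lies left of the diamond in each of the 17 pairs drawn, and on the left it lies right of the diamond in 15 of them, all but the pairs of Wars and Yars.

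TNF during differentiation was compared with control differentiation. In TNF cells 18 of 20 cytosolic synthetases rose, none fell, and 2 (Dars and Wars) did not pass the test; the median log2 fold change was 0.35. Of the 17 mitochondrial synthetases 7 rose, 1 fell (Nars2) and 9 did not pass the test, with a median of 0.09. Among all genes tested 54.6% were called, 31% higher and 23.6% lower, and the median was 0.03. The summed cytosolic level was 2968, 2966 and 3010.4 CPM in TNF libraries A, B and C, against 2374, 2343 and 2333 CPM in control libraries, which left it below every proliferating library. The cytosolic count stayed at 18 whichever single library was left out.

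Vars rose most, with 135, 147 and 145 CPM in TNF libraries A, B and C, against 79.5, 86.7 and 85.3 CPM in control libraries. Its groups were well apart, with a log2 fold change of 0.77 (SE 0.06; edgeR adjusted p = 5.73e-10). Cars had 72.7, 71.5 and 70.9 CPM in TNF libraries, against 48.1, 45.4 and 44.0 CPM in control libraries (log2 fold change 0.65, SE 0.07; edgeR adjusted p = 4.98e-08). Nars, the asparaginyl enzyme, had 315, 299 and 309 CPM in TNF libraries, against 221, 215 and 217 CPM in control libraries (log2 fold change 0.50, SE 0.06; edgeR adjusted p = 1.55e-07). Kars had 118, 121 and 123 CPM in TNF libraries, against 94.0, 95.7 and 93.4 CPM in control libraries (log2 fold change 0.35, SE 0.04; edgeR adjusted p = 5.49e-07). In each of these 4 genes, the cytosolic members with the smallest p-values, every TNF library was above every control library. Gars had 217, 219 and 228 CPM in TNF libraries against the 165 to 172 CPM of control libraries (log2 fold change 0.40, SE 0.06). Eprs had 310.0, 290.4 and 299 CPM in TNF libraries against 233 to 243 CPM in control libraries (log2 fold change 0.34, SE 0.06). TNF cells remained below proliferating cells in Eprs, at a log2 fold change of -0.25 (SE 0.06; edgeR adjusted p = 0.000435).

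The 2 phenylalanyl subunits rose together in TNF cells. Farsa had 63.7, 74.0 and 68.5 CPM in TNF libraries A, B and C (log2 fold change over control 0.32, SE 0.05; edgeR adjusted p = 3.84e-05), and Farsb 65.3, 59.1 and 61.3 CPM (0.19, SE 0.06; edgeR adjusted p = 0.00728). Their log2 ratio, Farsb over Farsa, was -0.15 ± 0.18 in TNF cells and -0.03 ± 0.07 in control cells (SD, n = 3 each; two-sided exact permutation test p = 0.4). Farsa was the single cytosolic member called higher in TNF than in proliferating cells (log2 fold change 0.16, SE 0.05; edgeR adjusted p = 0.0116), and that call was lost without TNF library B (edgeR adjusted p = 0.103).

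Wars encodes the tryptophanyl enzyme, which in human cells is also an interferon-gamma-induced gene. It had 67.5, 69.3 and 69.2 CPM in TNF libraries A, B and C, against 70.8, 70.0 and 70.2 CPM in control libraries. The TNF libraries lay just below the control libraries, and the log2 fold change was -0.04 (95% interval -0.14 to 0.07; edgeR adjusted p = 0.595). In the same cells 14 of 14 interferon-response genes rose, with a median of 2.03; the smallest p-values were those of Gbp2 (2.37), a guanylate-binding GTPase, and Irf1 (1.44), a transcription factor. All 14 rose in Fbxl2 siRNA cells over control cells as well (median 0.91), where Wars had 69.2, 67.6 and 68.8 CPM and a log2 fold change of -0.04 (95% interval -0.15 to 0.07; edgeR adjusted p = 0.545). Wars was lower in all 3 differentiated groups than in proliferating libraries A, B and C, at 119, 101 and 110.2 CPM. The log2 fold changes over proliferating cells were -0.68 in TNF cells, -0.69 in Fbxl2 siRNA cells and -0.65 in control cells (SE 0.05 each). In control over proliferating cells the 14 interferon-response genes rose too (median 3.09).

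By reported ATF4 control, 12 of 13 reported targets rose in TNF cells, all but Wars, with a median of 0.39, and 6 of the other 7 rose, all but Dars, with a median of 0.21. Atf4 had 296, 293 and 296 CPM in TNF libraries, against 219.7, 209.6 and 204 CPM in control libraries (log2 fold change 0.48, SE 0.06; edgeR adjusted p = 2.08e-06). Of the 27 genes for ATF4 and its other targets 20 rose, 2 fell (Atf3 and Stc2) and 5 did not pass the test, with a median of 0.57; the smallest p-values were those of Cebpb (1.32), which encodes a C/EBP factor, and Psat1 (0.57). Inside and outside the multi-synthetase complex 7 of 8 and 11 of 12 rose, with medians of 0.34 and 0.38. Of the scaffold genes Eef1e1 rose (0.24), while Aimp2 (0.16) and Aimp1 (0.07) did not pass the test. Of 6 cytosolic elongation factors 5 rose in TNF cells. Of 12 synthetase-related genes 1 rose (Xpot, 0.16) and 1 fell (Gatb, -0.24).

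Among the mitochondrial members, Yars2 had 14.6, 16.4 and 16.3 CPM in TNF libraries A, B and C, against 11.7, 13.4 and 12.4 CPM in control libraries. The groups did not overlap, and the log2 fold change was 0.33 (SE 0.08; edgeR adjusted p = 0.000879). Iars2, the isoleucyl enzyme, had 115, 112 and 113 CPM in TNF libraries and 103, 101 and 102 CPM in control libraries (log2 fold change 0.15, SE 0.04; edgeR adjusted p = 0.00282). Of the cytosolic members not called, Dars, at 189.8, 180.4 and 185 CPM in TNF libraries, against 203, 197 and 197 CPM in control libraries, had a log2 fold change of -0.10 (95% interval -0.21 to 0.00; edgeR adjusted p = 0.0885). Dars was called lower with no filter on low counts (edgeR adjusted p = 0.0413) or with only the 2 groups in the fit (edgeR adjusted p = 0.00298). Cars2 (0.32), Sars2 (0.31), Wars2 (0.19) and Hars2 (0.17) were called higher as well. The call of Sars2 was lost without control libraries A or B or TNF libraries B or C (highest edgeR adjusted p = 0.262), that of Wars2 without control libraries B or C or TNF library B (highest edgeR adjusted p = 0.0879), and that of Hars2 without control library C or TNF library C (highest edgeR adjusted p = 0.0681). Nars2, the asparaginyl enzyme, was the member called lower, at 10.1, 10.0 and 8.40 CPM in TNF libraries and 11.7, 11.2 and 11.8 CPM in control libraries (log2 fold change -0.28, SE 0.09; edgeR adjusted p = 0.01). That call rested on TNF library C and was lost without it (log2 fold change -0.20; edgeR adjusted p = 0.0808). The cytosolic member had the higher fold change in 15 of 18 pairs, with a median difference of 0.30. Of 9 mitochondrial translation factors 2 rose in TNF cells, Mtrf1 (0.62) and Tsfm (0.13), and of 11 mitochondrial tRNA enzymes 1 rose (Pus1, 0.32) and 1 fell (Trit1, -0.25).

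Silencing of Fbxl2 was compared with the same control group, so its values and those of TNF share their denominator and are given side by side without a measure of likeness. In Fbxl2 siRNA cells 14 of 20 cytosolic synthetases rose, none fell and 6 (Aars, Eprs, Farsa, Lars, Tars and Wars) did not pass the test; the median log2 fold change was 0.28. Of the mitochondrial members 6 of 17 rose, 1 fell (Mars2) and 10 did not pass the test, with a median of 0.14. Among all genes tested 63.9% were called, 34.1% higher and 29.8% lower, so the cytosolic share called higher lay above the background and the mitochondrial share near it. The median of all genes was 0.03. The summed cytosolic level was 2751, 2804 and 2721 CPM in Fbxl2 siRNA libraries A, B and C, against 2374, 2343 and 2333 CPM in control libraries.

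Hars, the histidyl enzyme, had the smallest p-value: 77.5, 76.0 and 79.1 CPM in Fbxl2 siRNA libraries A, B and C, against 60.7, 59.6 and 61.3 CPM in control libraries. The groups were tight and apart, with a log2 fold change of 0.36 (SE 0.05; edgeR adjusted p = 1.31e-06). Hars and the mitochondrial Hars2 lie head to head on chromosome 18 (GRCm38, GENCODE M21: Hars at 36766528 to 36783205 on the minus strand, Hars2 at 36783008 to 36792562 on the plus strand), and reads from their overlap cannot be told apart, since the use of strand in counting is not given in the sources used here. Cars had 63.6, 67.1 and 62.1 CPM in Fbxl2 siRNA libraries, against 48.1, 45.4 and 44.0 CPM in control libraries (log2 fold change 0.49, SE 0.07; edgeR adjusted p = 2.24e-06). Gars had 213, 245 and 218 CPM in Fbxl2 siRNA libraries, against 172, 165 and 166 CPM in control libraries (log2 fold change 0.43, SE 0.06; edgeR adjusted p = 2.58e-06). Qars, the glutaminyl enzyme, had 134, 136 and 137 CPM in Fbxl2 siRNA libraries, against 107, 106 and 108 CPM in control libraries (log2 fold change 0.34, SE 0.05; edgeR adjusted p = 2.89e-06). In these 4 genes the groups did not overlap, and for Qars the Fbxl2 siRNA libraries also lay above the 119.6 to 132 CPM of proliferating libraries (log2 fold change 0.09, SE 0.05; edgeR adjusted p = 0.0958). Kars had 114, 118 and 116 CPM in Fbxl2 siRNA libraries (log2 fold change over control 0.30, SE 0.04). The call of Yars (0.18) was lost without Fbxl2 siRNA library B (edgeR adjusted p = 0.0576) or control library C (edgeR adjusted p = 0.0799).

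Eprs and Farsa, which rose with TNF, did not pass the test in Fbxl2 siRNA cells. Eprs had 244, 237 and 239 CPM in Fbxl2 siRNA libraries A, B and C, against 243, 235 and 233 CPM in control libraries, with overlapping groups and a log2 fold change of 0.02 (95% interval -0.10 to 0.13). Farsa had 49.9, 53.4 and 52.3 CPM in Fbxl2 siRNA libraries, against 53.4, 57.6 and 54.1 CPM in control libraries (log2 fold change -0.09, 95% interval -0.20 to 0.03). Farsb, in contrast, had 62.9, 68.4 and 67.1 CPM in Fbxl2 siRNA libraries and rose over control (log2 fold change 0.29, SE 0.06; edgeR adjusted p = 0.000185). The log2 ratio of Farsb to Farsa was 0.35 ± 0.01 in Fbxl2 siRNA cells and -0.03 ± 0.07 in control cells (SD, n = 3 each; two-sided exact permutation test p = 0.1, the smallest possible).

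Of the reported ATF4 targets 8 of 13 rose in Fbxl2 siRNA cells, with a median of 0.26, and of the other cytosolic members 6 of 7 rose, with a median of 0.30. Atf4 had 272, 306 and 285 CPM in Fbxl2 siRNA libraries (log2 fold change over control 0.45, SE 0.06; edgeR adjusted p = 4.49e-06), and 17 of the 27 genes for ATF4 and its other targets rose while 2 fell (Stc2 and Vldlr). Psat1 (0.94) and Slc7a11 (0.71), the cystine transporter, had the smallest p-values. All 3 scaffold genes of the multi-synthetase complex rose: Aimp2 by 0.57, Aimp1 by 0.43 and Eef1e1 by 0.40. Aimp1 had 80.0, 89.6 and 83.4 CPM in Fbxl2 siRNA libraries and 64.8, 61.6 and 61.7 CPM in control libraries, with no overlap. Of the 8 synthetases in that complex 6 rose, all but Eprs and Lars, and of the 12 free ones 8 rose.

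Yars2 had 16.6, 18.8 and 18.2 CPM in Fbxl2 siRNA libraries A, B and C, against 11.7, 13.4 and 12.4 CPM in control libraries. Every Fbxl2 siRNA library was above every control library, with a log2 fold change of 0.52 (SE 0.07; edgeR adjusted p = 4.7e-06). Tars2 had 26.1, 27.8 and 26.7 CPM in Fbxl2 siRNA libraries and 20.9, 20.9 and 21.3 CPM in control libraries (log2 fold change 0.36, SE 0.06; edgeR adjusted p = 4.18e-05). Cars2 (0.52), Iars2 (0.14) and Hars2 (0.16) also rose, the last of these with a call that was lost without Fbxl2 siRNA library B or control libraries B or C (highest edgeR adjusted p = 0.102). Mars2, the methionyl enzyme of mitochondria, had 9.09, 9.84 and 10.4 CPM in Fbxl2 siRNA libraries, against 12.3, 11.6 and 12.4 CPM in control libraries. It was the member that fell, by a log2 fold change of -0.31 (SE 0.07; edgeR adjusted p = 0.00119), where the cytosolic Mars rose to 112, 118 and 112 CPM, against 90.8, 87.9 and 87.3 CPM in control libraries (0.36, SE 0.06). The cytosolic member had the higher fold change in 10 of 18 pairs and the lower in 8. Of 9 mitochondrial translation factors 6 rose, led by Tsfm (0.48) and Mtrf1l (0.33), and of 11 mitochondrial tRNA enzymes 2 rose, among them Hsd17b10 (0.36), and Trmu fell (-0.55). Of 6 cytosolic elongation factors 5 rose, led by Eef1g (0.66) and Eef1b2 (0.56). Of 12 synthetase-related genes 7 rose and 2 fell. The genes of the amidotransferase that makes mitochondrial glutaminyl-tRNA, Qrsl1 (0.24), Gatb (0.19) and Gatc (0.21), were among those that rose. The members called in none of the 3 comparisons described so far were Fars2 and Lars2.

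TNF and Fbxl2 siRNA cells were also compared with each other, which tests where the 2 differ. Of the cytosolic members 9 were higher in TNF cells, 3 were lower and 8 did not pass the test, with a median log2 fold change of 0.12, while 60.5% of all genes tested were called, 29.9% higher and 30.6% lower. The members higher in TNF cells were Farsa (0.40), Vars (0.38), Aars (0.37), Eprs (0.32), Tars (0.26), Iars (0.25), Lars (0.22), Nars (0.22) and Cars (0.16). The last of these calls was lost when any of TNF libraries A, B or C or Fbxl2 siRNA libraries A or C was left out (highest edgeR adjusted p = 0.136). Except for Farsa, all of these are reported ATF4 targets, and none of the 13 was lower. Of the 27 genes for ATF4 and its other targets 8 were higher, 3 were lower (Atf3, Psat1 and Slc7a11) and 16 did not pass the test, a share called higher near that of all genes tested. Atf4 mRNA did not differ beyond its error (log2 fold change 0.03, SE 0.06, edgeR adjusted p = 0.656). The level of ATF4 protein was not measured in these libraries. Dars, which rose in Fbxl2 siRNA over control cells (0.31, SE 0.05), was lower in TNF cells, at 189.8, 180.4 and 185 CPM in TNF libraries A, B and C, against 237 to 254 CPM in Fbxl2 siRNA libraries (log2 fold change -0.42, SE 0.05; edgeR adjusted p = 4.83e-07). Qars (-0.16) and Hars (-0.14) were lower too, with calls lost without TNF library A (Qars, edgeR adjusted p = 0.0502) and without Fbxl2 siRNA library C (Hars, edgeR adjusted p = 0.0513). Farsa was 63.7, 74.0 and 68.5 CPM in TNF libraries, against 49.9, 53.4 and 52.3 CPM in Fbxl2 siRNA libraries (SE 0.05; edgeR adjusted p = 2e-06). Farsb did not pass the test (-0.10, SE 0.06), and the log2 ratio of Farsb to Farsa was -0.15 ± 0.18 in TNF cells and 0.35 ± 0.01 in Fbxl2 siRNA cells (SD, n = 3 each; two-sided exact permutation test p = 0.1, the smallest possible).

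In TNF over Fbxl2 siRNA cells 4 mitochondrial members were lower, 1 was higher and 12 were not called, a share of calls below that of all genes tested in either direction. Tars2 was lower, at a log2 fold change of -0.38 (SE 0.06; edgeR adjusted p = 2.25e-05), with 19.3, 21.8 and 20.9 CPM in TNF libraries A, B and C, against 26.1, 27.8 and 26.7 CPM in Fbxl2 siRNA libraries. The groups did not overlap, and the call held whichever library was left out. Other calls were weaker. That of Nars2 (-0.27) was lost without TNF library C or Fbxl2 siRNA library C (highest edgeR adjusted p = 0.088), that of Yars2 (-0.19) without TNF library A or Fbxl2 siRNA libraries B or C (0.164), and that of Mars2, higher at 0.21, without TNF libraries A or B or Fbxl2 siRNA library A (0.109). The scaffold genes Aimp1 (-0.36) and Aimp2 (-0.41) were lower in TNF cells, while Eef1e1 (-0.16) did not pass the test.

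Against proliferating cells, most members were lower in both treated groups, as in control cells. In TNF cells 18 cytosolic members were lower, 1 was higher (Farsa) and 1 (Qars) did not pass the test, with a median log2 fold change of -0.54, where 72.9% of all genes tested were called, 36.5% lower and 36.3% higher. Of the mitochondrial members 9 were lower, 2 were higher (Ears2 and Wars2) and 6 did not pass the test. The call of Wars2 (0.19) was lost without TNF library B (edgeR adjusted p = 0.0586) or proliferating library C (edgeR adjusted p = 0.0607). In Fbxl2 siRNA cells 18 cytosolic members were lower and 2 (Dars and Qars) did not pass the test, with a median of -0.76, where 62% of all genes tested were called, 31.1% lower and 30.9% higher. Of the mitochondrial members 8 were lower, 1 was higher (Fars2) and 8 did not pass the test. The call of Fars2 (0.18; edgeR adjusted p = 0.0488) was lost without any of the 3 Fbxl2 siRNA libraries or without proliferating library B (highest edgeR adjusted p = 0.241). Dars had 237 to 254 CPM in Fbxl2 siRNA libraries, against 231, 264 and 238 CPM in proliferating libraries A, B and C, so its groups overlapped (log2 fold change 0.01, 95% interval -0.09 to 0.12).

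The spread between libraries was not the same in every group. The median coefficient of variation of the cytosolic members was 2.42% in TNF cells, 2.52% in Fbxl2 siRNA cells, 1.48% in control cells and 8.70% in proliferating cells. Over all genes tested these medians were 5.01%, 5.04%, 3.62% and 6.65% in the same order of groups. Among proliferating libraries the reported ATF4 targets differed together: all 13 were highest in library A and lowest in library B. Of the other 7 cytosolic members 5 were highest in library B and 1 (Qars) was lowest there. Over all genes tested 40.2% were lowest and 38.4% highest in library B, and 4768 of 12736 were highest in library A. The summed level of the 13 reported targets was 3836, 3118 and 3377 CPM in proliferating libraries A, B and C, while that of the other 7 was 890.2, 968 and 935 CPM. Of the 27 genes for ATF4 and its other targets 26 were highest in library A and 23 lowest in library B. Atf4 had 585 CPM in library A, against 476 CPM in B and 493 CPM in C. This split between proliferating libraries was noticed after the values were seen, and it was not tested. Without proliferating library B, or without either of the other 2, at least 19 of 20 cytosolic members were still called lower in control cells.

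**Figure D4:**
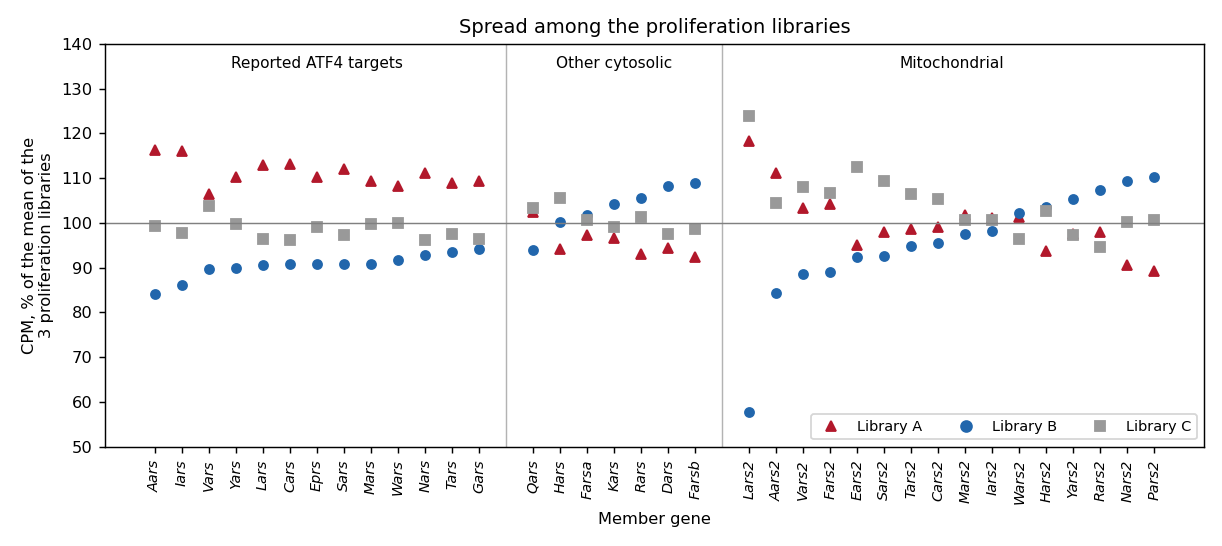
CPM of 36 of the 37 members in proliferating libraries A (red triangle), B (blue circle) and C (grey square), as a percent of the mean of the 3, with members ordered by library B within each class. Library A is above and library B below the other libraries in all 13 reported ATF4 targets, while 5 of the other 7 cytosolic members are highest in B, and Lars2 has the lowest B value of all.

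Levels of different genes were compared per kilobase, using the union of exons in GENCODE M21 as the length. The median cytosolic member stood at 27.5 CPM per kb in TNF cells, 25.1 in Fbxl2 siRNA cells, 20.9 in control cells and 40.1 in proliferating cells. The median mitochondrial member other than Lars2 stood at 2.79, 2.95, 2.78 and 3.09 CPM per kb in the same order of groups. Gars was the highest cytosolic member, at 71.0 ± 1.80 CPM per kb in TNF cells, 72.2 ± 5.61 in Fbxl2 siRNA cells, 53.7 ± 1.24 in control cells and 133 ± 10.95 in proliferating cells (SD, n = 3 each). Nars followed, at 70.6 ± 1.94 CPM per kb in TNF cells and 60.6 ± 1.66 in Fbxl2 siRNA cells, and in TNF cells the 2 did not differ beyond their spread. Mars2 and Cars2 were the lowest, both at 1.07 ± 0.04 CPM per kb in control cells. Of the mitochondrial members other than Lars2, Iars2 was the highest, at 11.5 ± 0.12 CPM per kb in control cells, which was close to Farsa (12.1 ± 0.50) and Yars (10.9 ± 0.40). Unions of exons hold rare transcripts, so a gene with many of them is understated on this scale.

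**Figure D5:**
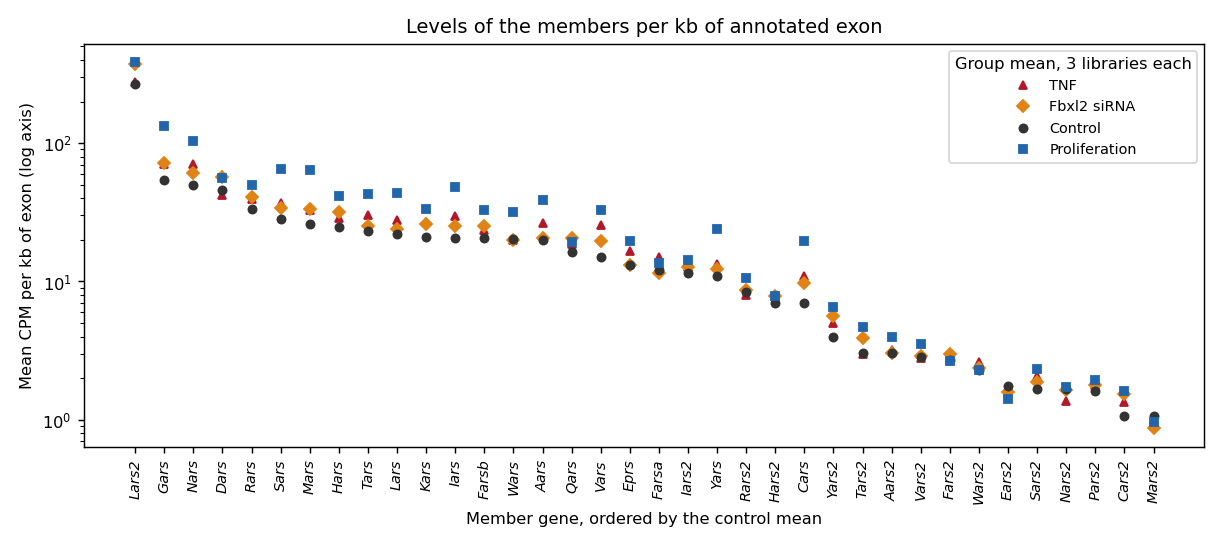
Mean level of 36 of the 37 members in CPM per kb of annotated exon on a log axis, with 1 symbol for each of the 4 groups and members ordered by their control mean. The counts assigned to Lars2 stand above all others at 267 to 384 CPM per kb (their source was not tested). Cytosolic members fill the middle, and Mars2 is the lowest in every group on this scale, which depends on the exon length used.

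Lars2, which encodes the mitochondrial leucyl enzyme (chromosome 9, 123366927 to 123462666 on the plus strand, GRCm38), stood apart from every other member in level. Whether all counts assigned to it come from its mRNA was not tested, so its levels and fold changes are those of the assigned counts. Its share of a library's counts lay between 0.245% and 0.546%, and it ranked between 4 and 15 among all genes in CPM. It had 3058, 3055 and 3048 CPM in TNF libraries A, B and C, and 5462, 3598 and 3301 CPM in Fbxl2 siRNA libraries. In control libraries it had 2949, 2921 and 3024 CPM, and in proliferating libraries 5039, 2464 and 5284 CPM. TNF and control libraries were thus tight, while Fbxl2 siRNA library A stood well above, and proliferating library B well below, the other 2 libraries of its group. Lars2 was called in none of the 6 comparisons with all libraries. Without proliferating library B it was called lower in control than in proliferating cells (log2 fold change -0.80; edgeR adjusted p = 0.00537) and in TNF than in proliferating cells (-0.76; edgeR adjusted p = 0.00761).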

How the data were processed

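RNA of C2C12 cells, prepared with an Illumina mRNA kit per the labels, was sequenced in 12 libraries, 3 in each group. The authors deposited raw counts per gene symbol, and the submitters' processing notes name CASAVA, DESeq2 and the mm10 build; which aligner, counting program, annotation and strand setting were used was not given in the sources used here. The authors also deposited comparison tables with normalized counts (a signal: counts divided by a size factor per library), log2 fold changes, their standard errors and test statistics (scores) and p-values; by its own columns, the table named for proliferation sets TNF over proliferating cells. In the authors' deposited table for TNF over control all 37 members had the sign found here, and 33 fell on the same side of an adjusted p of 0.05. The authors' table called Dars lower (log2 fold change -0.13) and did not call Hars2, Sars2 and Wars2, which were called higher here. For Fbxl2 siRNA over control these numbers were 34 and 35. There the authors' table did not call Hars2, called higher here, and called Lars higher, not called here.

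All values and tests in the text were computed from the counts. edgeR 4.0.16 (R 4.3.3, limma 3.58.1) was used with filterByExpr, TMM factors and a robust quasi-likelihood fit of 4 group means to all 12 libraries, with 8 residual degrees of freedom; 12736 of 21232 genes were tested, with Benjamini-Hochberg adjustment over all of them. Standard errors are the log2 fold change divided by the root of the F statistic, and intervals are at 95%. No 2 libraries were identical, so each counted once. Chi-square per degree of freedom within groups ran from 1.61 to 21.7, the highest between proliferating libraries A and B. A count of 0 allows up to 3 counts, or 0.0911 to 0.114 CPM; these floors cover counting error only. By the rule used here the letters did not pair the libraries (3 of 18 correlations of same-letter deviations were over 0.1), so no block was used. The fit was tested on simulated data for TNF over control. At true folds of 1.25 and 0.8 it called 30 of 50 and 29 of 50 genes. At true folds of 2 and 0.5 it called 47 of 50 and 48 of 50. Of 12376 unchanged genes 5 were called. The simulation changed 200 genes, while in the deposited data 54.6% of genes tested were called in TNF over control cells. The adjustment was thus stricter in the simulation, and its rates do not describe the tests given here. A member that did not pass the test may still differ by a small fold.

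The members and gene lists were chosen with earlier results of these data known. Values per library were given for Eprs, Farsa, Farsb, Gars, Kars and Wars, and for the 4 cytosolic and 3 mitochondrial members with the smallest p in each direction of each comparison with control or of control with proliferation; from each context list the 2 genes with the smallest p were named. Genes named beyond this, such as those behind a count of 5 or fewer, were chosen after their values were seen. Of the mitochondrial members 1 is counted but not reported by itself here. Alternatives were RLE size factors (the scaling of DESeq2), DESeq2 1.42.0, no filter on low counts, only the compared groups in the fit, a replicate block, each library or letter left out, and Gars and Kars taken out.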

Additional observations from a re-analysis of the deposited data

How the results depend on the processing

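Of 3108 alternative values of members, 2947 stayed on their side of the threshold, 136 lost a call and 25 gained a call. No called value changed sign, while 85 of the 2947, all uncalled, did. Calls were lost under some alternative in 41 of 222 pairs of member and comparison. With a single library left out, the cytosolic members called lower in control over proliferating cells numbered 19 to 20, those higher in TNF over control cells 18 and those higher in Fbxl2 siRNA over control cells 13 to 14. Without Gars and Kars 18 of 18 were lower in control over proliferating cells, 16 higher in TNF cells and 12 higher in Fbxl2 siRNA cells. The following counts moved by more than 1.5 times, and the cause was not tested; leaving out all 4 libraries of a letter also leaves fewer samples.

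In TNF over control cells, 1 cytosolic member (Dars) was called lower with no low-count filter and with only the 2 groups in the fit, against 0. The mitochondrial members called higher were 5 to 7 with a library left out and 2 without letter C, against 7, and those called lower 0 to 1 and 0, against 1. In Fbxl2 siRNA over control cells, 1 cytosolic member (Farsa) was lower with only the 2 groups, against 0. In control over proliferating cells, 0 mitochondrial members were higher without letter B, against 1.

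In TNF over proliferating cells, the cytosolic members called higher were 0 to 1 with a library left out and 0 without letter B or C, against 1. The mitochondrial members called higher were 1 to 2 with a library left out, 1 without letter A or C and 0 without letter B, against 2, and those called lower were 5 without letter C, against 9. In Fbxl2 siRNA over proliferating cells, the mitochondrial members called higher were 0 to 2 with a library left out and 0 under RLE, no filter, the replicate block, only the 2 groups, DESeq2 or any letter left out, against 1 (Fars2), and those called lower 3 without letter C, against 8. In TNF over Fbxl2 siRNA cells, the cytosolic members called lower were 1 without letter C, against 3. The mitochondrial members called higher were 0 to 1 with a library left out and 0 without letter A or B, against 1, and those called lower 2 to 4 with a library left out, 2 under DESeq2 and 1 without letter C, against 4.

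The sample titles number the 4 libraries of letter A apart from those of letters B and C, without saying what the numbers stand for. Without letter A, 20 cytosolic members were lower in control over proliferating cells, 18 higher in TNF over control cells and 14 higher in Fbxl2 siRNA over control cells. With the replicate block, 7070 genes were called in TNF over control cells against 6960 without it, 8239 against 8142 in Fbxl2 siRNA over control cells and 9897 against 9836 in control over proliferating cells. Correlations of same-letter deviations ran from -0.0957 to 0.183. All members passed the filter on low counts. The least counted ones have the larger counting error, and its share in their standard errors was not tested.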
